A study of Mus musculus with 4 samples.

Results

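The genes described here are 40 genes of cholesterol synthesis, sterol transport and fatty acid synthesis, with the genes that control the SREBP transcription factors over them. They were chosen by gene symbol from a fixed list of names, among 55335 rows of the expression file, and all 40 were found. That list was drawn up with earlier results of these data known. By role, 18 encode enzymes of sterol synthesis, 5 control SREBP activity, 3 carry or export sterol, and 14 make, elongate, desaturate or activate fatty acids. An expression filter (FPKM, a read level corrected for gene length and library depth, of at least 1 in at least 2 libraries) kept 38 of the 40, among 11955 genes that passed it, and 36 were at or above that level in all 4 libraries. The members that did not pass were Tm7sf2, a sterol reductase, and Abcg1, a sterol exporter. The same filter was used for every gene tested, and the members were taken by symbol.

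SREBP proteins are made as precursors in the membrane of the endoplasmic reticulum, bound to the escort protein SCAP. When membrane sterol is plentiful, INSIG proteins hold SCAP and the precursor in place. When sterol falls, SCAP carries the precursor to the Golgi, where proteases release a fragment that enters the nucleus and activates genes of sterol and fatty acid synthesis. SREBP2, from Srebf2, acts mainly on sterol genes, and SREBP1, from Srebf1, mainly on fatty acid genes. Proliferating tumour cells use both products to build membranes.

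RNA was sequenced in 4 libraries of CT26, a colon carcinoma line derived from BALB/c mice, which the growth notes call mesenchymal and which was grown in medium with fetal bovine serum. The libraries titled CT26_102_R and CT26_CTL_R are labelled FOSL2-KO with chemoradiotherapy, and those titled CT26_102 and CT26_CTL are labelled FOSL2-WT with PBS. Genotype and treatment therefore change together and cannot be told apart, and no source used here gives the agents, the dose, the time or how the gene was altered. The design text speaks of KD cells, not KO cells. The titles give a second division, the stem (CT26_102 or CT26_CTL), whose meaning is also not given. Each combination of stem and suffix is 1 library. In the text below, pairs of values in the suffix R libraries are in the order CT26_102_R, then CT26_CTL_R, and pairs in the libraries without the suffix are in the order CT26_102, then CT26_CTL. No label states that the 4 libraries are from separate cultures. A p-value here therefore rests on these 4 libraries alone. In the main fit, with suffix and stem as terms, it weighs a difference against how far the pairs of libraries disagree. That disagreement is combined with a variance shared over all genes, and it may be technical. In bulk RNA, fewer cells of a type and less RNA per cell cannot be told apart.

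Fosl2, an AP-1 subunit and the gene named by the labels, had 16.0 and 19.2 FPKM in the libraries labelled FOSL2-KO, against 9.35 and 12.7 FPKM in those labelled FOSL2-WT. The transcript was thus higher in the libraries labelled FOSL2-KO (0.64 ± 0.13 on the log2(FPKM + 1) scale, SE, limma adjusted p = 0.0444). Since how the gene was altered is not given, its transcript level cannot tell whether the genotype label holds. The groups are therefore called by the suffix R throughout. Estimated depth was 21.72 to 26.46 M reads a library (M for mega). Epithelial markers were mixed: 5 of 8 were below 1 FPKM in all 4 libraries, with Epcam and Cdx2 listed at 0, while the other 3, all keratins, passed the expression filter. Krt18 had 39.6 and 76.5 FPKM in the suffix R libraries, against 34.7 and 42.5 FPKM in the others. Krt20 had 27.4 and 36.8 FPKM in the suffix R libraries, against 27.3 and 24.5 FPKM in the others. Krt8 had 2.74 and 3.82 FPKM in stem CT26_102, against 0.652 and 0.461 FPKM in stem CT26_CTL, and so passed the filter through 1 stem. It was higher in that stem by 1.45 ± 0.19 (log2, SE, limma adjusted p = 0.0142). Because its level there let it into the test, this p is no independent support for a stem difference. All 7 mesenchymal markers passed the expression filter, with 5 below 0 and 2 above 0 between suffixes. Only Vim passed the test there, and it fell, with 535 and 503 FPKM in the suffix R libraries, against 782 and 640 FPKM. Between stems these markers were mixed. Col3a1 had 19.8 and 53.0 FPKM in stem CT26_102, against 0.144 and 0.568 FPKM in stem CT26_CTL, and so passed the filter through 1 stem. It rose by 4.65 (log2, adjusted p = 0.00325), Col1a1 rose by 1.11 and S100a4 fell by 0.72. All 7 T and NK cell markers were below 1 FPKM in all libraries, with a summed level of 0.753 and 0.438 FPKM in the suffix R libraries, against 0.174 and 0.152 FPKM in the others. The 6 myeloid markers summed to 119 and 90.9 FPKM in the suffix R libraries, against 24.8 and 42.8 FPKM in the others. Of these, Cd68, a lysosomal protein gene, was at 63.9 and 86.4 FPKM in the suffix R libraries, against 8.49 and 28.3 FPKM, and Lyz2 at 53.1 and 4.36 FPKM, against 15.0 and 13.1 FPKM. The pan-leukocyte gene Ptprc stayed at 0.0880 FPKM or lower in every library. The 5 hepatocyte and adipocyte markers, of cells with high lipid synthesis, were below 1 FPKM in all libraries. The part of these markers in the results that follow was not tested.

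Of the 11 members that fell in the suffix R libraries, 6 have an entry in the RefSeq promoter table (GRCm38.p6, 250 bases before to 50 after the transcript start). The promoters of 4 are shown, 1 from an early and 1 from a late sterol enzyme (Hmgcs1 and Nsdhl), 1 from the SREBP brake Insig1 and 1 from the fatty acid synthase Fasn. They stand for the roles in which members fell, apart from the carriers, whose Stard4 has no entry. They lie at chr13:119690101-119690400 (plus strand), chrX:72918271-72918570 (plus strand), chr5:28071162-28071461 (plus strand) and chr11:120824498-120824797 (minus strand), and each runs 5′ to 3′ along its gene. Capitals mark TCACNCNAC, a loose form of the sterol regulatory element, and CCAAT or its reverse complement ATTGG, the letters bound by NF-Y.
Hmgcs1: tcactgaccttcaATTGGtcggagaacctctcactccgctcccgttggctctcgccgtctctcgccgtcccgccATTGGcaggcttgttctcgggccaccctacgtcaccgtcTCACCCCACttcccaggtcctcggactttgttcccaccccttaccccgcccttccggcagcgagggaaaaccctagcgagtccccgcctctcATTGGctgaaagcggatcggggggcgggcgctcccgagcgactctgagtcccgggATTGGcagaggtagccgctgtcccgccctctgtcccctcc
Nsdhl: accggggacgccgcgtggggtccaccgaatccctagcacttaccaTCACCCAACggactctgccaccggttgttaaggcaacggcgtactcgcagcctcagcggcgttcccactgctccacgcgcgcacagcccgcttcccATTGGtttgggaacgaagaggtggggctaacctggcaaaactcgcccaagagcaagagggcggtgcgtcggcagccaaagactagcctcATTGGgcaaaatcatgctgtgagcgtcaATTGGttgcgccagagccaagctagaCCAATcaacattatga
Insig1: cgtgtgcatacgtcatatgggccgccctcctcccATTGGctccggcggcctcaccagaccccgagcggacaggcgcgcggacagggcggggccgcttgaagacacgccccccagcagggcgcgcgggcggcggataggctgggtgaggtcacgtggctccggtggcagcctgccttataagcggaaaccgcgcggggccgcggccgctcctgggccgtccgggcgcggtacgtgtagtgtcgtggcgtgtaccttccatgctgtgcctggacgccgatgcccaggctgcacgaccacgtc
Fasn: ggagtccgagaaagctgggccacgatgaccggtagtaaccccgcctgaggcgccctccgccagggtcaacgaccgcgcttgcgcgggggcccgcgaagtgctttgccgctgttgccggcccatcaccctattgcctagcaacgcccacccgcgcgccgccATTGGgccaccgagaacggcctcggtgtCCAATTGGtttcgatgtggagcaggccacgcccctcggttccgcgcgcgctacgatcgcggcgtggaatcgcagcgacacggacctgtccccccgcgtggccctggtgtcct

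Counted from 1 at the 5′ end of each printed sequence, the Hmgcs1 promoter holds the strict element TCACCCCAC at position 114 and CCAAT boxes, all on the reverse strand, at 14, 75, 206 and 261. The Nsdhl promoter holds the loose form only, at position 46, with CCAAT boxes at 142, 231 and 259 on the reverse strand and at 285 on the strand shown. The Insig1 window has a single CCAAT box, at 35 on the reverse strand. The Fasn window has boxes at 161, 189 and 192, of which the last pair overlap on opposite strands. Both strands were searched in all 32851 promoters of the table. The strict element was in 0.551% of them and in 0.758% of the 8308 tested genes with an entry. Among the 32 members with an entry, only Hmgcs1 holds it. Its loose form, which includes the strict one, was in 2.70% of promoters, in 3.37% of those tested genes and in the members Hmgcs1 and Nsdhl. CCAAT was in the promoter of 26 of 32 members (14 of 15 sterol enzymes and 8 of 11 fatty acid genes), against 43.8% of 8308 tested genes with an entry. GGGCGG, the letters bound by Sp1, was also in 26 of 32 members, against 70.4% of those genes. Of the 6 members that fell and have an entry, Acsl3 and Elovl6 are not shown. Acsl3 holds a CCAAT box, whereas the Elovl6 window holds no CCAAT, no GGGCGG and neither form of the sterol element. These are counts of letters in a window and say nothing on whether a factor was bound.

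Between the suffix R libraries and the others, 0 members rose and 11 fell, and 27 of the 38 tested did not pass the test. Those that fell were Hmgcs1, Sqle and Nsdhl among sterol enzymes, Insig1 among control genes, Stard4 among carriers, and Fasn, Scd1, Scd2, Elovl6, Fads1 and Acsl3 among fatty acid genes. The test was limma on log2(FPKM + 1) with suffix and stem as terms, two-sided, with the Benjamini-Hochberg adjustment made over all 11955 tested genes and a threshold of 0.05. Over all genes, 7.57% passed as higher and 5.32% as lower by the same rule, and the share of members that fell was 11 of 38. Because the list was drawn up with earlier results of these data known, this contrast is not an independent one. The median log2 difference was -0.47 over the tested members and 0.00425 over all genes, and 35 of 38 members were below 0, against 5934 of 11955 genes. An unadjusted p under 0.05 by limma was found for 22 of 38 members, against 4315 of 11955 genes. The 3 members with a positive difference (Fdft1, Hsd17b7 and Scap) were not among the 22. The calls rest on the stem term and the filter. With the suffix as the only term in limma, 0 members passed (lowest adjusted p = 0.435). An unadjusted p under 0.05 was then found for 10 members, against 1281 of 11955 genes. With no filter on low values 0 passed (lowest adjusted p = 0.153). There 21 members were at an unadjusted p under 0.05, against 4937 of 27670 genes. With 2 libraries against 2, an exact permutation test of 1 gene cannot give a p below 0.333.

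A rule with no p, chosen after the data had been seen, gave nearly the same members. It asks for a level over 1.5 times lower, or higher, in both pairs of a stem. By this rule 11 members were lower and 0 higher, where 7.65% of all genes were lower and 8.79% higher. Of the 12 members called by either rule, 10 were called by both. The rule and the test use the same libraries and both favour a large difference shared by the pairs, so this agreement is no separate support. The exceptions were Scd1, which fell by the test but was not over 1.5 times lower in stem CT26_CTL, and Acaca, which was over 1.5 times lower in both pairs but did not pass the test. Rescaling the libraries by their upper quartile changed the balance of calls over all genes, with 937 higher and 1011 lower in place of 905 and 636, and called 16 members lower and 0 higher.

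**Figure D1:**
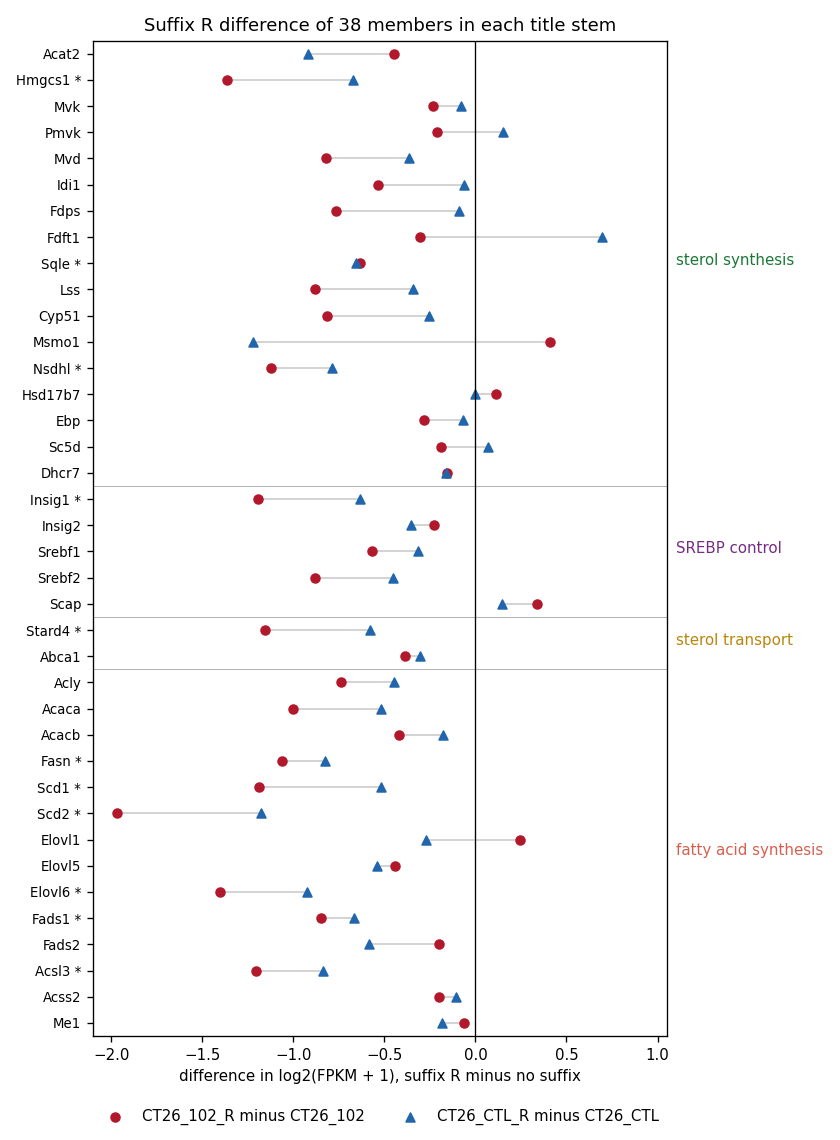
Log2 difference of FPKM + 1 between the suffix R library and its partner in each stem, for the 38 tested members grouped by role down the page, with a circle for stem CT26_102, a triangle for stem CT26_CTL and an asterisk by the 11 members past the threshold in limma. Both points of 31 members lie below 0, and the circle of Scd2 lies farthest below.

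Sterol synthesis starts with acetyl-CoA units. Acat2, whose thiolase joins the first of them, had 20.8 and 12.6 FPKM in the suffix R libraries, against 28.7 and 24.7 FPKM in the others, a log2 difference of -0.68 that did not pass (adjusted p = 0.0557). Hmgcs1 (ENSMUSG00000093930, GRCm38 chromosome 13, 119690379 to 119708260, plus strand), the cytosolic synthase that makes HMG-CoA, had 13.4 and 10.6 FPKM in the suffix R libraries, against 36.2 and 17.5 FPKM in the others. Its highest value was thus in CT26_102, and the groups did not overlap. Hmgcs1 fell by 1.02 ± 0.20 (log2, SE, n = 2 libraries a group, adjusted p = 0.0417), and its promoter is the 1 with the strict sterol element shown above.

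The mevalonate steps follow. Mvk, mevalonate kinase, had 9.95 and 13.0 FPKM in the suffix R libraries, against 11.9 and 13.7 FPKM. Pmvk, the next kinase, had 18.9 and 20.4 FPKM in the suffix R libraries, against 22.1 and 18.3 FPKM. Both sets overlap. Mvd, the decarboxylase that yields isopentenyl diphosphate, had 8.93 and 9.47 FPKM in the suffix R libraries, against 16.5 and 12.5 FPKM, with no overlap (log2 difference -0.59, adjusted p = 0.0730). Idi1, the isomerase of that product, had 4.90 and 8.50 FPKM in the suffix R libraries, against 7.53 and 8.91 FPKM. Fdps, which builds farnesyl diphosphate, had 26.3 and 44.6 FPKM in the suffix R libraries, against 45.5 and 47.6 FPKM, so CT26_102_R stood below the other 3 libraries. None of these 5 genes passed the test.

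Squalene formation and cyclization include the second sterol enzyme that fell. Fdft1, squalene synthase, had 15.9 and 19.8 FPKM in the suffix R libraries, against 19.9 and 11.9 FPKM, with opposite differences in the stems. Sqle (ENSMUSG00000022351, chromosome 15, 59315077 to 59331192, plus strand), squalene epoxidase and a rate-limiting step, had 12.8 and 16.0 FPKM in the suffix R libraries, against 20.5 and 25.8 FPKM. The ratio was nearly equal in both stems, at 0.626 and 0.620, and Sqle fell by 0.65 ± 0.12 on the log2 scale (adjusted p = 0.0413). Lss, which closes the sterol rings, had 2.67 and 3.29 FPKM in the suffix R libraries, against 5.74 and 4.43 FPKM, a difference of -0.61 that did not pass.

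The enzymes that turn lanosterol into cholesterol gave the third. Cyp51, the lanosterol demethylase, had 20.7 and 30.1 FPKM in the suffix R libraries, against 37.2 and 36.1 FPKM (log2 difference -0.53, adjusted p = 0.0970). Msmo1, a methyl sterol oxidase, had 14.3 and 8.10 FPKM in the suffix R libraries, against 10.5 and 20.2 FPKM, and so was higher with the suffix in stem CT26_102 and lower in stem CT26_CTL. Nsdhl (ENSMUSG00000031349, chromosome X, 72918557 to 72958514, plus strand), a dehydrogenase that works with Msmo1 to remove methyl groups, had 4.89 and 8.76 FPKM in the suffix R libraries, against 11.8 and 15.8 FPKM. It fell by 0.96 ± 0.15 (adjusted p = 0.0303), with ratios of 0.414 and 0.553 in the stems. Of the last enzymes, none that was tested passed between suffixes. Ebp, the sterol isomerase, had 14.6 and 31.6 FPKM in the suffix R libraries, against 18.0 and 33.2 FPKM. Sc5d had 10.1 and 14.1 FPKM, against 11.7 and 13.4 FPKM without the suffix. Dhcr7, a sterol reductase, had 4.39 and 5.78 FPKM, against 5.02 and 6.60 FPKM without the suffix. Hsd17b7 stayed between 1.19 and 1.72 FPKM, and Tm7sf2, which was not tested, had 0.722 and 0.454 FPKM in the suffix R libraries, against 0.928 and 0.805 FPKM. In all, 3 of 17 tested sterol enzymes fell and 0 rose, with a median log2 difference of -0.41.

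Among the control genes, Insig1 (ENSMUSG00000045294, chromosome 5, 28071363 to 28078662, plus strand), the sterol-sensing brake and itself a classical SREBP target, had 24.0 and 27.9 FPKM in the suffix R libraries, against 56.4 and 43.8 FPKM in the others. The groups did not overlap, and Insig1 fell by 0.92 ± 0.17 (adjusted p = 0.0397). Its relative Insig2 had 8.69 and 11.5 FPKM in the suffix R libraries, against 10.3 and 15.0 FPKM, which overlap (adjusted p = 0.182). Srebf2 had 10.7 and 14.2 FPKM in the suffix R libraries, against 20.5 and 19.8 FPKM, with no overlap but short of the threshold (-0.67, adjusted p = 0.0558). Srebf1 had 15.6 and 11.4 FPKM in the suffix R libraries, against 23.5 and 14.4 FPKM (-0.44, adjusted p = 0.0895). Scap, the escort, had 13.7 and 7.42 FPKM in the suffix R libraries, against 10.6 and 6.62 FPKM, and was the 1 control gene with a positive difference (0.24, adjusted p = 0.260). The median over the 5 was -0.44.

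Of the carriers, Stard4 (ENSMUSG00000024378), a soluble sterol transfer protein, had 6.62 and 6.63 FPKM in the suffix R libraries, against 16.0 and 10.4 FPKM. Both suffix R values lay close together and below the others, and Stard4 fell by 0.87 ± 0.18 (adjusted p = 0.0463). Abca1, an exporter driven by the oxysterol receptor LXR, had 5.05 and 3.88 FPKM in the suffix R libraries, against 6.91 and 5.03 FPKM, and did not pass (-0.35, adjusted p = 0.138). Abcg1 was between 0.143 and 0.228 FPKM in all 4 libraries.

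Fatty acid synthesis begins with cytosolic acetyl-CoA and its carboxylation. Acly, which splits citrate, had 36.0 and 21.6 FPKM in the suffix R libraries, against 60.6 and 29.7 FPKM (-0.59, adjusted p = 0.0522). Acss2, which uses acetate instead, had 2.16 and 0.930 FPKM in the suffix R libraries, against 2.63 and 1.08 FPKM (-0.15, adjusted p = 0.489). Acaca, the cytosolic carboxylase that supplies malonyl-CoA, had 3.32 and 2.83 FPKM in the suffix R libraries, against 7.67 and 4.48 FPKM (-0.76, adjusted p = 0.0522). These early enzymes did not pass the test, and only the Acaca groups failed to overlap. Acacb, the carboxylase of the mitochondrial surface, had 2.95 and 0.978 FPKM in the suffix R libraries, against 4.29 and 1.23 FPKM. Me1, a source of NADPH for the synthase, was at 25.1 and 24.7 FPKM in the suffix R libraries, against 26.3 and 28.1 FPKM (-0.12, adjusted p = 0.511).

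Fasn (ENSMUSG00000025153, chromosome 11, 120805846 to 120824547, minus strand), the synthase that makes palmitate, had 21.5 and 10.1 FPKM in the suffix R libraries, against 45.8 and 18.7 FPKM in the others. Its level in CT26_102_R lay above that in CT26_CTL, so the groups overlap across stems although the ratio was 0.468 in stem CT26_102 and 0.541 in stem CT26_CTL. It fell by 0.94 ± 0.13 with the stem in the fit (adjusted p = 0.0265). Elovl6 (ENSMUSG00000041220, chromosome 3, 129532355 to 129638495, plus strand), which elongates palmitate to stearate, had 4.46 and 2.64 FPKM in the suffix R libraries, against 13.4 and 5.91 FPKM, and fell by 1.16 ± 0.17 (adjusted p = 0.0277). The other elongases did not pass. Elovl1 had 12.8 and 16.7 FPKM in the suffix R libraries, against 10.7 and 20.4 FPKM (-0.01, adjusted p = 0.964). Elovl5, which elongates polyunsaturated chains, had 14.2 and 14.5 FPKM in the suffix R libraries, against 19.6 and 21.6 FPKM (-0.49, adjusted p = 0.0639).

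The stearoyl-CoA desaturases make monounsaturated chains. Scd2 (ENSMUSG00000025203, chromosome 19, 44293674 to 44306864, plus strand) had 14.3 and 8.29 FPKM in the suffix R libraries, against 59.0 and 20.0 FPKM in the others. It fell by 1.57 ± 0.22 (adjusted p = 0.0252), the largest difference among the 38 tested members, and its groups did not overlap. Scd1 (ENSMUSG00000037071, chromosome 19, 44394455 to 44407879, minus strand) had 37.8 and 59.2 FPKM in the suffix R libraries, against 87.4 and 85.4 FPKM, and fell by 0.85 ± 0.19 (adjusted p = 0.0482). The isoforms were thus at different ends in the same library: within the suffix R libraries Scd1 was lowest in CT26_102_R and Scd2 lowest in CT26_CTL_R. Of the front-end desaturases of polyunsaturated fatty acids, Fads1 (ENSMUSG00000010663, chromosome 19, 10182888 to 10196877, plus strand) had 26.5 and 33.3 FPKM in the suffix R libraries, against 48.4 and 53.4 FPKM, and fell by 0.76 ± 0.12 (adjusted p = 0.0328). Its neighbour Fads2 had 53.4 and 30.1 FPKM in the suffix R libraries, against 61.5 and 45.7 FPKM, and did not pass (-0.39, adjusted p = 0.121). Acsl3 (ENSMUSG00000032883, chromosome 1, 78657825 to 78707743, plus strand), which activates fatty acids for lipid droplets, had 3.53 and 3.21 FPKM in the suffix R libraries, against 9.43 and 6.52 FPKM, and fell by 1.02 ± 0.16 (adjusted p = 0.0295). In all, 6 of 14 fatty acid genes fell and 0 rose, with a median log2 difference of -0.67.

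As a level per arm, the 18 sterol enzymes summed to 206 FPKM in CT26_102_R and 258 FPKM in CT26_CTL_R, against 311 FPKM in CT26_102 and 313 FPKM in CT26_CTL. The suffix R library thus held 0.662 of its partner's sum in stem CT26_102 and 0.827 in stem CT26_CTL. The 14 fatty acid genes summed to 258 and 229 FPKM in the suffix R libraries, against 457 and 342 FPKM in the others, ratios of 0.565 and 0.670. In both arms the sum was lower with the suffix in both stems, and the fatty acid arm had the lower ratio in each. The 5 control genes summed to 72.7 and 72.4 FPKM in the suffix R libraries, against 121 and 99.6 FPKM. The 3 carriers summed to 11.9 and 10.7 FPKM in the suffix R libraries, against 23.1 and 15.6 FPKM. No test was made of these sums, since abundant genes dominate them.

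**Figure D2:**
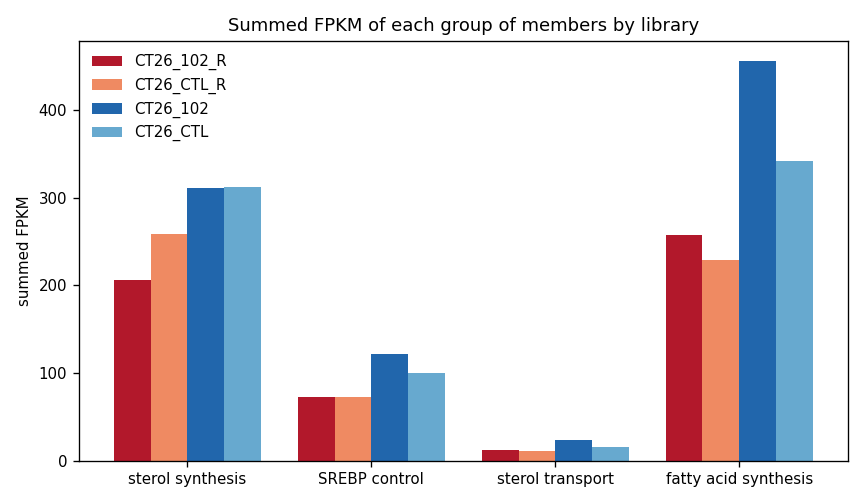
Summed FPKM of the 4 groups of members in each library, as bars from 0 on a linear axis. In each group both suffix R bars are below both bars without the suffix, and the fatty acid bars of CT26_102_R and CT26_CTL_R stand at 258 and 229 FPKM, against 457 and 342 FPKM.

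The size of the difference varied with the stem. Over the 38 tested members the median log2 difference was -0.55 in stem CT26_102 and -0.36 in stem CT26_CTL, and 31 members were below 0 in both stems, against 38.2% of all genes. The difference was lower in stem CT26_102 than in stem CT26_CTL for 27 of 38 members, against 43.4% of all genes. For the sterol enzymes the medians were -0.45 in stem CT26_102 and -0.16 in stem CT26_CTL, and for the fatty acid genes -0.79 and -0.53. With 1 library in each combination, this difference between the stems could not be tested, and in the main fit it serves as the error.

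Between the stems, most calls lay in the fatty acid arm. In stem CT26_102, compared with stem CT26_CTL, 9 members rose and 1 fell. Those that rose were 7 of 14 fatty acid genes (Acly, Acacb, Fasn, Scd2, Elovl6, Fads2 and Acss2) and the control genes Srebf1 and Scap, while the member that fell was the sterol enzyme Ebp. None of 17 tested sterol enzymes rose, with 5 at an unadjusted p under 0.05 by limma in either direction, against 4830 of 11955 genes. Over all genes, 12.5% passed as higher and 9.44% as lower. The median log2 difference was 0.52 over the fatty acid genes and -0.24 over the sterol enzymes, against 0.0539 over all genes. By the rule of 1.5 times in both pairs, 7 members were higher and 1 was lower, where 13.1% of all genes were higher and 7.57% lower. With the stem as the only term in limma 0 members passed (lowest adjusted p = 0.157). An unadjusted p under 0.05 was then found for 5 members, against 2000 of 11955 genes. With no filter 0 passed (lowest adjusted p = 0.0893). There 16 members were at an unadjusted p under 0.05, against 5802 of 27670 genes.

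Fasn had 21.5 FPKM in CT26_102_R and 45.8 FPKM in CT26_102, against 10.1 FPKM in CT26_CTL_R and 18.7 FPKM in CT26_CTL, and rose by 1.13 ± 0.13 (log2, SE, n = 2 libraries a stem, adjusted p = 0.0119). Acacb (ENSMUSG00000042010, chromosome 5, 114146535 to 114250761, plus strand) had 2.95 and 4.29 FPKM in stem CT26_102, against 0.978 and 1.23 FPKM in stem CT26_CTL, and rose by 1.12 ± 0.15 (adjusted p = 0.0153). Scd2 had 14.3 and 59.0 FPKM in stem CT26_102, against 8.29 and 20.0 FPKM in stem CT26_CTL, and rose by 1.12 ± 0.22 (adjusted p = 0.0284). For each of these the CT26_102 library lacking the suffix was the highest of the 4. Acly (ENSMUSG00000020917, chromosome 11, 100476353 to 100528000, minus strand) had 36.0 and 60.6 FPKM in stem CT26_102, against 21.6 and 29.7 FPKM in stem CT26_CTL (0.86 ± 0.13, adjusted p = 0.0189). Elovl6 had 4.46 and 13.4 FPKM in stem CT26_102, against 2.64 and 5.91 FPKM in stem CT26_CTL (0.82 ± 0.17, adjusted p = 0.0326). The smaller rises were those of Acss2 (0.76 ± 0.15, adjusted p = 0.0296), Scap (0.71 ± 0.14, adjusted p = 0.0282), Fads2 (0.61 ± 0.14, adjusted p = 0.0419) and Srebf1 (0.55 ± 0.14, adjusted p = 0.0489). Srebf1 had 15.6 and 23.5 FPKM in stem CT26_102, against 11.4 and 14.4 FPKM in stem CT26_CTL, whereas Srebf2 had 10.7 and 20.5 FPKM in stem CT26_102, against 14.2 and 19.8 FPKM (-0.17).

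Ebp (ENSMUSG00000031168, chromosome X, 8185329 to 8193512, minus strand) had 14.6 and 18.0 FPKM in stem CT26_102, against 31.6 and 33.2 FPKM in stem CT26_CTL, and fell by 0.96 ± 0.13 (adjusted p = 0.0153). Nsdhl, the other sterol gene on chromosome X, had 4.89 and 11.8 FPKM in stem CT26_102, against 8.76 and 15.8 FPKM in stem CT26_CTL, and did not pass (-0.56, adjusted p = 0.0549). Hmgcs1 differed from these in sign, at 0.66 ± 0.20 (adjusted p = 0.0727). Of the desaturases, Scd1 had 37.8 and 87.4 FPKM in stem CT26_102, against 59.2 and 85.4 FPKM in stem CT26_CTL (-0.30, adjusted p = 0.280), the opposite sign to Scd2. The fatty acid sum was 1.13 times as high in CT26_102_R as in CT26_CTL_R and 1.33 times as high in CT26_102 as in CT26_CTL. For the sterol sum the same ratios were 0.798 and 0.995.

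**Figure D3:**
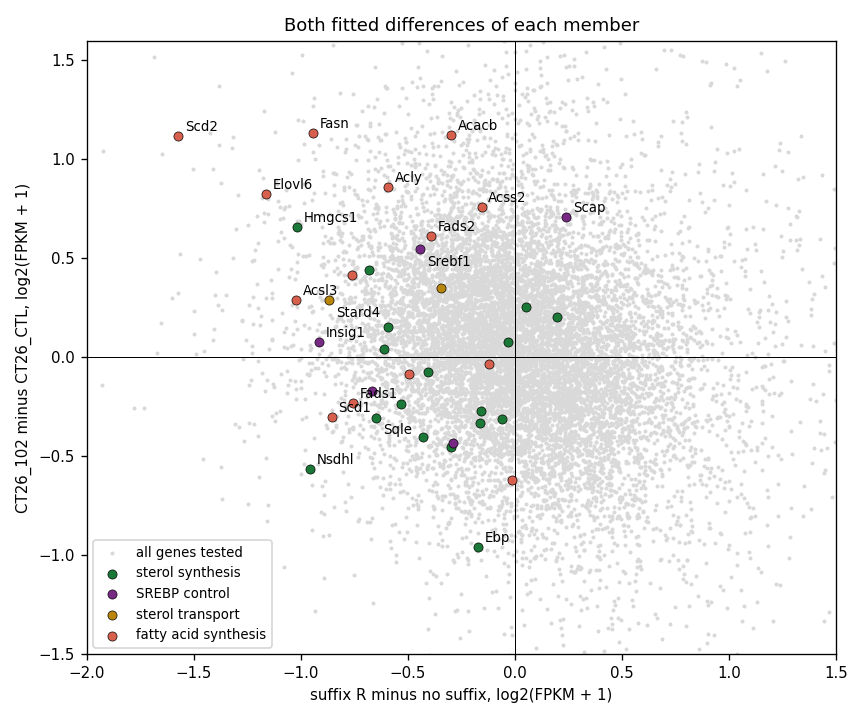
Fitted log2 difference between suffix R and no suffix (horizontal) against that between stem CT26_102 and stem CT26_CTL (vertical), with 1 point for each tested member coloured by role, over all tested genes in grey, of which the outermost lie beyond the axes. The members past the threshold in either comparison are named. Fasn, Scd2 and Elovl6 passed in both, lower with the suffix and higher in stem CT26_102, while 15 of 17 sterol enzymes lie left of 0 and 10 of 17 lie below 0 on the vertical axis.

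Fasn, Scd2 and Elovl6 were thus the 3 members that passed in both comparisons. Because both comparisons use the same 4 libraries, the position of a gene in one is not independent of its position in the other. The members that fell with the suffix and did not pass between stems were Hmgcs1, Sqle, Nsdhl, Insig1, Stard4, Scd1, Fads1 and Acsl3. Insig1 was close to level between stems, with 24.0 and 56.4 FPKM in stem CT26_102, against 27.9 and 43.8 FPKM in stem CT26_CTL (0.08, adjusted p = 0.772).

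**Figure D4:**
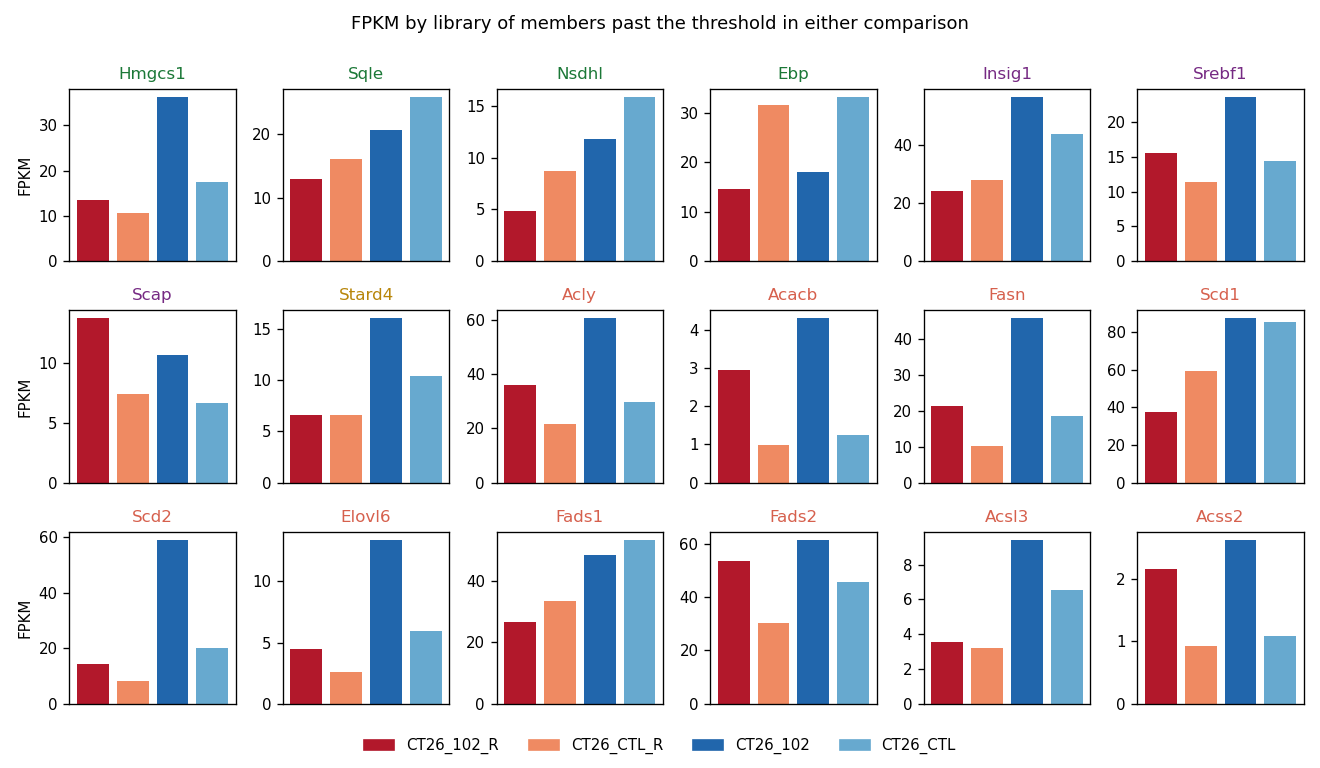
FPKM in each library (1 bar a library, from 0, with a scale of its own in each panel) of the 18 members past the threshold in either comparison, with gene names coloured by role. The suffix R bars of Hmgcs1, Sqle, Nsdhl, Insig1, Stard4, Scd1, Scd2, Elovl6, Fads1 and Acsl3 are both below the other bars. Those of Fasn overlap the others across stems, and the bars of Ebp and Acacb follow the stem.

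In level per length, the desaturases led the members. Scd1 was the highest member in CT26_CTL_R, CT26_102 and CT26_CTL, and Fads2 in CT26_102_R. Among sterol enzymes, Fdps was highest in all 4 libraries, and the ranges of Cyp51, Ebp, Hmgcs1 and Acat2 overlap its range. Insig1 led the control genes in all 4 libraries. The low end held Abcg1, Tm7sf2, Hsd17b7, Acss2 and Acacb, all below 5 FPKM.

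Genes around the pathway, grouped by role, were mostly short of the threshold. Of 6 tested genes of SREBP proteolysis and degradation, 1 rose and 1 fell with the suffix, where 7.57% of all genes rose and 5.32% fell. Fbxw7, the ubiquitin ligase subunit that marks nuclear SREBP for destruction among many other substrates, had 4.66 and 2.86 FPKM in the suffix R libraries, against 1.68 and 1.15 FPKM, and rose by 0.96 ± 0.15 (adjusted p = 0.0307). Mbtps1, the site-1 protease that starts SREBP cleavage, had 6.48 and 6.17 FPKM in the suffix R libraries, against 13.1 and 9.20 FPKM, and fell by 0.71 ± 0.16 (adjusted p = 0.0498). The LXR and esterification genes gave 0 calls among 7 tested, with 2 at an unadjusted p under 0.05 by limma. The isoprenoid branch genes gave 0 among 8, with 1 at such a p. Over all genes such a p was found for 4315 of 11955. Of 9 acyl-CoA, elongation cycle and acetyl supply genes, 1 fell, the acyl-CoA synthetase Acsl5, with 20.7 and 27.9 FPKM in the suffix R libraries, against 31.7 and 42.3 FPKM (-0.59, adjusted p = 0.0440).

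Genes that use or burn fatty acids gave few calls with the suffix, where 7.57% of all genes passed as higher and 5.32% as lower. Of 9 glycerolipid and phospholipid genes, 1 rose, the phosphatidate phosphatase Lpin1, with 16.6 and 7.01 FPKM in the suffix R libraries, against 8.49 and 3.17 FPKM (0.92 ± 0.13, adjusted p = 0.0265). Among the fatty acid oxidation genes Cpt1a, which admits fatty acids to mitochondria, had 5.98 and 3.95 FPKM in the suffix R libraries, against 10.3 and 6.35 FPKM, and fell by 0.63 ± 0.13 (adjusted p = 0.0470).

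Several members share sequence or position with other genes, and whether reads were counted by strand is not given. Fdft1 overlaps Ctsb on the opposite strand, a lysosomal protease gene at 176 and 183 FPKM in the suffix R libraries, against 146 and 148 FPKM. Elovl1 overlaps Cdc20 on the opposite strand, a cell cycle gene at 145 and 85.9 FPKM in the suffix R libraries, against 142 and 90.4 FPKM. Acss2 overlaps Gss and Ggt7 on the opposite strand, and Ggt7 had 8.39 and 4.29 FPKM in stem CT26_102, against 0.361 and 0.0681 FPKM in stem CT26_CTL. Of the members that fell, Acsl3 overlaps the protein-coding gene Utp14b on the same strand, which had 1.23 and 0.899 FPKM in the suffix R libraries, against 2.42 and 1.03 FPKM in the others. The values of these 4 members are uncertain to that degree, and they are not the only ones. Cyp51 overlaps Akap9 and Srebf1 overlaps Rai1, both on the opposite strand. Akap9 was at 3.59 and 2.48 FPKM in the suffix R libraries, against 4.96 and 3.41 FPKM. Rai1 was at 1.56 and 1.62 FPKM there, against 1.94 and 2.56 FPKM. The untested Tm7sf2 overlaps Vps51 on the same strand, at 5.82 and 4.71 FPKM in the suffix R libraries, against 6.92 and 4.94 FPKM. Scd3, a close copy of Scd1 and Scd2, was at 0.456 and 0.194 FPKM in the suffix R libraries, against 1.73 and 0.785 FPKM, and Acat3, a copy of Acat2, at 1.79 and 0.105 FPKM, against 0.426 and 2.79 FPKM. Differences also moved with transcript length over all genes. With all tested genes cut into 5 equal bins by exonic length, the median suffix R difference was 0.15 in the shortest bin and -0.15 in the longest, and the median stem difference was -0.16 in the shortest and 0.27 in the longest. The median exonic length was 5085 bases over the fatty acid genes, 4315 over the sterol enzymes and 3887 over all tested genes. With that trend taken off, Fasn, with an exonic length of 10947 bases, was at -0.78 between suffixes and 0.84 between stems, and the fatty acid medians were -0.55 and 0.35.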

How the data were processed

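RNA-seq libraries of 4 CT26 samples were made with a SMARTer mRNA-seq kit, per the labels' protocols. The authors deposited 1 table of FPKM for each gene and library, and the aligner, the counting tool and the handling of strand are not named in any source used here. The submitters' processing notes name GRCm38 and mm10, a single assembly. Positions and exonic lengths came from GENCODE M21, which holds 99.67% of the file's gene identifiers, and promoters from RefSeq.

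A gene was tested when its FPKM reached 1 in 2 or more libraries, as log2(FPKM + 1), which understates folds of low genes, with limma 3.58.1 in R 4.3.3 (eBayes with a mean-variance trend). Suffix R and title stem were terms of a single model with 1 residual degree of freedom and 4.01 prior degrees of freedom. The stem pairs the suffix libraries only by title, and the model without it is an alternative. The method was tested on simulated data with no stem effect and with changes larger than that of any member. That test does not cover differences of the size seen here. Depth is an estimate from the FPKM steps of single reads, where 36.612% to 38.456% of values under 5 reads were whole within 0.05 reads, and 1 read in 2000 bases was worth 0.0189 to 0.0230 FPKM. No counting intervals were computed.

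The members and gene lists were chosen with earlier results of these data known. Of the listed genes, Spring1 was not matched. Named genes are all members, those of the other lists past the threshold with the suffix (up to 3 a list) and Fosl2, and genes overlapping a member, except 1 that is not reported here. Marker genes and copies were named after their values were seen. Alternatives were another pseudocount (0.1), both looser and stricter filters, upper-quartile and median-of-ratios rescaling, no variance trend, no stem term, each library left out, removal of a length trend, and a fold rule of 1.5 times added after the data were seen. Plots were drawn with matplotlib 3.10.9.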

Additional observations from a re-analysis of the deposited data

Results flagged for a closer look

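For 6 members the suffix R difference had opposite signs in the stems, and none of the 6 passed the test between suffixes. Each combination of stem and suffix is 1 library, so the difference between stems was not tested. On the log2(FPKM + 1) scale Msmo1, the methyl sterol oxidase, was at 0.41 in stem CT26_102 and -1.22 in stem CT26_CTL, a gap of 1.63. Fdft1, squalene synthase, was at -0.30 in stem CT26_102 and 0.69 in stem CT26_CTL, a gap of -0.996, and it overlaps the abundant Ctsb on the opposite strand. Elovl1, which overlaps Cdc20, was at 0.25 in stem CT26_102 and -0.27 in stem CT26_CTL, a gap of 0.52. Smaller gaps were those of Pmvk at -0.36, Sc5d at -0.26 and Hsd17b7 at 0.11.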

How the results depend on the processing

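Rescaling, another pseudocount, the stricter filter and a fit with no variance trend kept 8 to 11 of the 11 suffix R calls among members. The same settings kept 8 to 10 of the 10 stem calls, or 8 of the 8 still tested under the stricter filter. With no filter on low values all calls ended: 0 of all genes (1541 with the filter), 0 sterol enzymes (3) and 0 fatty acid genes (6) passed between suffixes, and 0 of all genes (2623), 0 sterol enzymes (1) and 0 fatty acid genes (7) between stems. With no replicate block, which here is the other division of the titles, 1 gene passed between suffixes and 34 between stems, with 0 sterol enzymes and 0 fatty acid genes in either comparison. Leaving out each library in turn, with no block, left 2 to 11 genes between suffixes and 0 to 16 between stems, and 0 members of either arm. The remaining lone library was then assumed to vary like the others. Leaving out either library of a pair leaves only the other pair. All called members kept their sign in each pair, but a call already needs the pairs to be close, so this adds little. The sterol median ran from -0.45 to -0.16 between suffixes and from -0.30 to -0.0646 between stems, the fatty acid median between stems from 0.38 to 0.57, and the median of the control genes between stems from -0.20, a reversed sign, to 0.36. With FPKM of at least 1 in all 4 libraries 2 sterol enzymes passed between stems and the fatty acid median there was 0.352, and with the length trend removed it was 0.355. Lss between stems turned to -0.00642 under median-of-ratios rescaling. The cause of these changes was not tested. With 2 libraries a side and no counts, precision rests on the prior variance shared over genes, and a member short of the threshold is not shown to be level.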
